A study of Sus scrofa with 12 samples.

Results

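The genes described here encode the ubiquitin-conjugating enzymes, called E2 enzymes, and the activating enzymes, called E1 enzymes, that feed them, in porcine oocytes during in vitro maturation. Members were all genes whose pig symbol begins with UBE2, together with UBA1, UBA2, UBA3, UBA6, SAE1 and BIRC6. The name table used here named 15029 of the 31908 Ensembl gene identifiers in the files, and 34 of these were members. Of the 34, 26 averaged 1 FPKM or more across all libraries and were tested, and 8 lay under that level. UBA2, UBE2F, UBE2G1 and UBE2N could not be matched to an identifier and were not analysed here. UBE2L3 and UBE2U were matched only through a list of changed genes made from these same samples, so they were left out of all counts and their levels are given as a description.

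Oocytes were aspirated with their cumulus cells from antral follicles of prepubertal gilts, cultured in maturation medium with gonadotrophins and epidermal growth factor, and stripped of cumulus cells by hyaluronidase and pipetting before lysis. The groups were 0h, before culture, when oocytes are at the germinal vesicle stage, 22h, before metaphase I, and 46h, at metaphase II, with 4 libraries of pooled oocytes in each. The labels give no treatment or genotype that differed between them. Time and exposure to the maturation medium went together, since the 0h oocytes were not cultured. The stage names follow an earlier count by the authors at similar hours, in which some oocytes of each group were at another stage. The paper does not say that oocytes lagging behind their group were removed. Their RNA was primed with oligo-dT and amplified by SMART-Seq2, and levels are FPKM, the fragments of a gene scaled to its transcript length and to the size of the library, as the authors deposited them. Nothing in the labels says that replicates came from separate pools of animals, so p-values measure the spread between these libraries. For the middle time point the series' design text gives another hour than the sample labels, and the 22h of the labels was used.

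Ubiquitin is a small protein that cells attach to other proteins. An E1 enzyme activates it with ATP and passes it to the catalytic cysteine of an E2, and the E2, held by an E3 ligase, delivers it to the target, where the E2 often decides whether a chain is built and through which lysine. Chains linked through lysine 48 and lysine 11 mark proteins for the proteasome, lysine 63 chains and single ubiquitins act in signalling, DNA repair and chromatin, and parallel E1 and E2 enzymes carry the related modifiers SUMO and NEDD8. In oocytes, the anaphase-promoting complex (APC/C), an E3, removes cyclin B and securin at the meiotic divisions with the help of its own E2 enzymes.

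The members the results turn on share the catalytic core of the E2 fold. The coding sequences below, from RefSeq on Sscrofa11.1, run 42 bases from the histidine-proline-asparagine codons that stand ahead of the active site, and the capitals mark the codon of the catalytic cysteine. They are shown because they set the closest paralogues side by side.
UBE2D1: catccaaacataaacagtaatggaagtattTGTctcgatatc
UBE2D2: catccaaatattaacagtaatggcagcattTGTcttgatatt
UBE2D3: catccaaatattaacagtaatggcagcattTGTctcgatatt
UBE2D4: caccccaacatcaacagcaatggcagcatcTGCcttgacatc
UBE2A: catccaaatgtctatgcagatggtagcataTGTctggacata
UBE2B: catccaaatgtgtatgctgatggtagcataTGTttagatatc
UBE2C: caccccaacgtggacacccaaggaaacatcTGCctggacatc
UBE2T: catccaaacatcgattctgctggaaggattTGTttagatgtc

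Over these 42 bases UBE2D2 and UBE2D3 differed at 1 base, UBE2D1 and UBE2D3 at 5, UBE2A and UBE2B at 6, UBE2D3 and UBE2D4 at 10, and UBE2C and UBE2T at 18. The histidine-proline-asparagine and cysteine pattern was found in 15 of the 35 members with a RefSeq coding sequence. UBE2V1 and UBE2V2, the E2 variants that have no catalytic cysteine, did not hold it. Over the aligned coding sequence UBE2D2 and UBE2D3 were 88.2% identical with a longest shared run of 56 bases, whereas UBE2A and UBE2B were 78.2% identical and UBE2D1 and UBE2D3 78.6%. Intronless copies elsewhere in the genome, defined as at least 90% identical over at least 80% of the coding sequence, were found for UBE2B (1 copy, 99.1% identical), UBE2D3 (2 copies, the closer 95.3% identical), UBE2E3 (1 copy, 92.2%) and UBA3 (1 copy, 90.3%). Reads of these genes could have been split with their copies in the authors' quantification, so their levels are uncertain to that extent.

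Total FPKM ranged from 697468 to 802184 per library, and no read counts were at hand, so depth is unknown. The mitochondrially encoded genes took 1.79% to 3.77% of this total in the 0h libraries, 8.06% to 12.02% in those of 22h and 12.8% to 16.7% in those of 46h. With each library scaled to an equal total (TPM) without these genes, 6, 11 and 12 of the 26 members tested passed at 22h against 0h, 46h against 22h and 46h against 0h, beside 5, 11 and 13 in TPM with them and 5, 11 and 12 in FPKM. Over all genes tested, 2001, 3098 and 4065 of 7000 passed in TPM without the mitochondrially encoded genes. With them, 1937, 3047 and 3935 of 7013 passed in TPM and 1873, 2975 and 3922 in FPKM. Fewer genes reached 1 FPKM at 46h (5819 to 6076 per library) than at 22h (6682 to 7135) or 0h (6939 to 7895). Of the oocyte markers, 11 of 12 were matched, with a summed level between 13793 and 19319 FPKM at 0h, between 16434 and 23370 at 22h and between 4008 and 7478 at 46h. GDF9, BMP15, OOEP and the ZP genes were abundant at 0h, but GDF9 averaged 37.8 FPKM and ZP3 95.5 at 46h. DDX4, NLRP5 and KIT averaged no more than 10.7 FPKM at any stage. At 46h ZAR1 averaged 0.702 FPKM and FIGLA 1.33. Of the cumulus and granulosa cell markers, 15 of 16 were matched, and LHCGR, INHA and NR5A1 were listed at 0 in every library. FST (2.51 to 9.58 FPKM) and STAR (2.06 to 7.58) were present in every library, and the others apart from VCAN did not exceed 0.33 FPKM. The sum of these markers lay between 46.2 and 88.7 FPKM at 0h, between 55.6 and 86.0 at 22h and between 118 and 143 at 46h, mostly from VCAN. The part of other cells in the results was not tested. The 0h replicate 4 library stood apart from the rest of its group (correlation across genes with the others 0.934 to 0.970), with the lowest level of UBE2D3 and UBE2C, so results that rest on 0h are also given without it where that changes them. FPKM is relative to the library, so a lower level cannot be told apart from a rise of other transcripts, nor fewer oocytes of a kind from less RNA in each. Since the RNA was primed with oligo-dT, which binds the poly(A) tail, a level can also depend on tail length, which was not measured.

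The family was dominated by a single member. UBE2D3, a broad-acting E2 that works with many RING-type E3 ligases, was the most abundant member at every stage, and UBE2C, the E2 that starts ubiquitin chains on APC/C substrates, was second. UBE2D3 made up 56.9% ± 5.23 (SD, n = 4) of the summed member FPKM at 0h, 63.6% ± 2.48 at 22h and 85.1% ± 1.23 at 46h. UBE2C made up 21.6% ± 2.7 at 0h, 20.4% ± 2.93 at 22h and 5.10% ± 0.689 at 46h. The shares of UBE2D3 at 46h (83.9% to 86.8%) lay above every library of 0h (50.5% to 61.5%) and 22h (61.1% to 65.8%). These shares do not move with a single scaling factor per library. A method that changes genes within a library unequally, such as the quantile normalization used below, can move them.

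The summed level of the 34 members was 5714 ± 1341 FPKM at 0h, 6639 ± 1048 at 22h and 8617 ± 801 at 46h. Without UBE2D3 it was 2412 ± 351 at 0h, 2408 ± 335 at 22h and 1278 ± 101 at 46h, so the sum of the others at 46h lay below that of every earlier library (lowest 1886). Members spread over more than 3 orders of magnitude. Only UBE2D3 and UBE2C had a mean over 1000 FPKM, UBE2NL and UBE2V1 lay between 100 and 1000, 10 members between 10 and 100, 12 between 1 and 10, and 8 under 1.

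**Figure D1:**
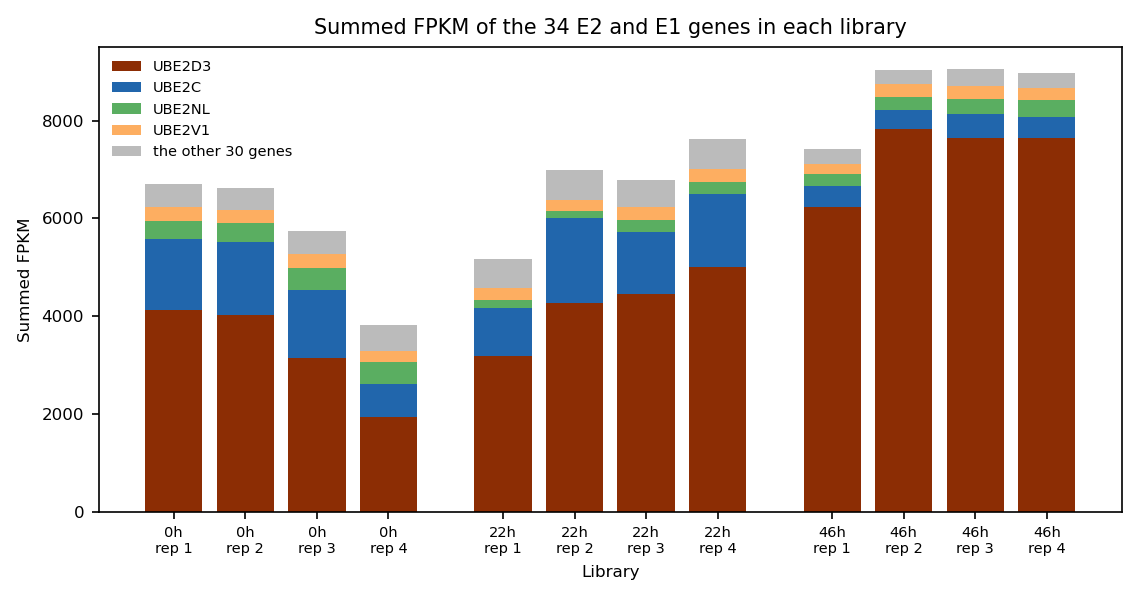
Summed FPKM of the 34 E2 and E1 genes (y axis) in each of the 12 libraries (x axis), stacked by gene. UBE2D3 fills 83.9% to 86.8% of the bar at 46h, and the UBE2C portion is smaller in all 46h libraries than in any earlier library.

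Across all members, change came mostly in the later interval. Between 0h and 22h, 5 of the 26 members tested passed the thresholds (limma, Benjamini-Hochberg adjusted p under 0.05 and fold change over 1.5), which is 19.2% beside 26.7% of the 7013 genes tested. UBE2A, UBE2H and UBE2Q1 were higher at 22h (beside 7.84% of all genes), and UBE2B and UBE2NL were lower (beside 18.9%). Between 22h and 46h, 11 of 26 passed (42.3% beside 42.4% of all genes), with UBE2D1 and UBE2D3 higher (2 of 26, beside 9.87% of all genes) and UBE2A, UBE2B, UBE2C, UBE2E3, UBE2H, UBE2J2, UBE2K, UBE2R2 and UBE2T lower (9 of 26, beside 32.6%). Between 0h and 46h, 12 of 26 passed (46.2% beside 55.9%), 4 higher (beside 16.8%) and 8 lower (beside 39.1%). These shares are near or under those of all genes, so a change in itself does not mark the family.

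The median log2 fold change of the 26 members was 0.19 at 22h against 0h, -0.33 at 46h against 22h and -0.30 at 46h against 0h, beside 0.00, -0.26 and -0.25 over all genes tested. With 1 library left out, the members' median at 22h against 0h ranged from 0.103 to 0.245. At 46h against 0h it ranged from -0.359 to -0.137, the latter without 0h replicate 4 (beside -0.169 over all genes). Median-of-ratios scaling moved the all-gene median at 46h against 0h to 0.00 and quantile normalization to 0.37. The members' own medians became 0.19, -0.13 and -0.05 with the former and 0.30, 0.07 and 0.28 with the latter, so that the sign of both 46h medians turned under quantile normalization. The calls moved with the scaling. At 46h against 0h, 4 higher and 8 lower members became 4 and 7 under median-of-ratios scaling, where 26.9% of all genes were higher, 34.1% lower and 61.1% passed in all. Under quantile normalization they became 8 and 5, beside 41.0% of all genes higher, 25.5% lower and 66.5% in all. At 46h against 22h, 2 higher and 9 lower members became 3 and 7 under median-of-ratios scaling (all genes 19.1% higher, 26.2% lower, 45.4% in all) and 4 and 6 under quantile normalization (28.1%, 19.1% and 47.2%). At 22h against 0h, 3 higher and 2 lower stayed 3 and 2 under median-of-ratios scaling (8.28%, 18.9% and 27.2%) and became 5 and 1 under quantile normalization (14.9%, 16.1% and 31.0%).

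**Figure D2:**
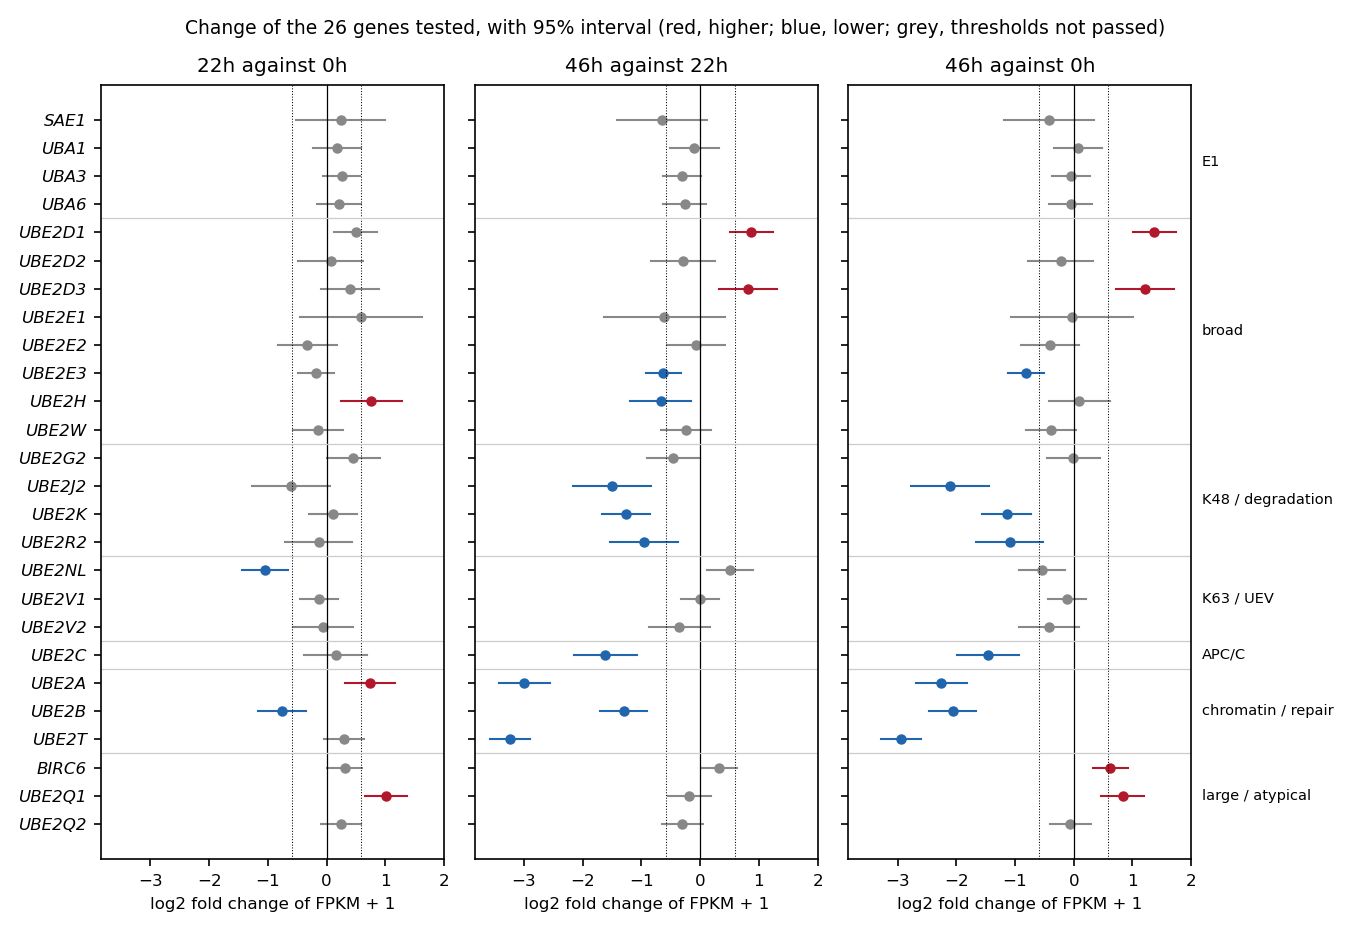
Log2 fold change of FPKM + 1 (x axis) with its 95% interval from limma for each of the 26 members tested (y axis, grouped by role) in the 3 comparisons, with dotted lines at a fold change of 1.5 either way. The falls of UBE2A and UBE2T at 46h reach beyond -2, UBE2D1 and UBE2D3 rise, and the 4 activating enzymes pass in none of the comparisons.

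The activating enzymes stand at the head of the pathway. UBA1 and UBA6 are the E1 enzymes of ubiquitin, SAE1 is a subunit of the E1 of SUMO, and UBA3 is the catalytic subunit of the E1 of NEDD8. None of these 4 passed in any comparison. UBA3 was the highest, at 44.3 ± 4.65 FPKM at 0h, 53.1 ± 5.33 at 22h and 42.8 ± 4.82 at 46h. SAE1 varied most between libraries of 1 stage, from 13.9 to 53.8 FPKM at 0h. Without 46h replicate 3 SAE1 passed as lower at 46h than at 22h, with a log2 fold change of -0.92 (limma adjusted p = 0.04838).

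The levels of both ubiquitin E1 genes were low. UBA1 was measured at 0.85, 0.45, 1.20 and 1.65 FPKM at 0h, 1.44, 1.07, 1.1 and 1.38 at 22h, and 1.43, 0.71, 1.44 and 0.90 at 46h. UBA6 was measured at 1.86, 1.91, 2.28 and 1.63 FPKM at 0h, 3.14, 2.59, 2.45 and 1.52 at 22h, and 2.34, 1.47, 1.57 and 1.92 at 46h. The stages overlapped for both genes. From 0h to 46h the 95% interval of the log2 fold change of FPKM + 1 ran from -0.34 to 0.49 for UBA1. For UBA6 it ran from -0.42 to 0.32. At levels this near 1 FPKM the pseudocount of 1 FPKM compresses changes, so these intervals do not bound the fold change of FPKM itself. Under quantile normalization both passed as higher at 46h than at 0h, by 0.77 for UBA1 and 0.61 for UBA6.

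Among the broad-acting E2 enzymes of the UBE2D family, UBE2D1 and UBE2D3 rose and UBE2D2 passed in no comparison. UBE2D3 lies on chromosome 8 from 118218224 to 118229002 of Sscrofa11.1. Its libraries read 4119, 4027, 3139 and 1927 FPKM at 0h, at 3191, 4265, 4456 and 5012 at 22h, and at 6222, 7833, 7652 and 7649 at 46h. The first 2 stages overlapped, and every 46h library lay above every earlier one. UBE2D3 rose by 1.21 on the log2 scale from 0h to 46h (SE 0.23, adjusted p = 0.0003748) and by 0.81 from 22h to 46h (SE 0.23, adjusted p = 0.01005). Without 0h replicate 4 the first of these was 0.97, and it passed with both other scalings, by 1.54 and 0.93. Its RefSeq model is 411 bases, all of them coding, and the transcript length the authors used is not given in the sources used here, so its level relative to the other genes depends on that length.

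UBE2D1 has the same biochemical role and lies on chromosome 14 from 92296314 to 92330432. It was measured at 5.55, 5.33, 5.83 and 5.47 FPKM at 0h, at 9.06, 7.32, 7.63 and 9.07 at 22h, and at 14.1, 11.8, 18.9 and 20.2 at 46h. The 3 stages did not overlap, each above the one before. UBE2D1 rose by 1.37 on the log2 scale from 0h to 46h (SE 0.17, adjusted p = 7.607e-06) and by 0.87 from 22h to 46h (SE 0.17, adjusted p = 0.0007762). The early difference of 0.50 from 0h to 22h (adjusted p = 0.03971) was under the fold threshold. It passed under quantile normalization (0.68) and in TPM without the mitochondrially encoded genes.

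The UBE2D1 to UBE2D3 ratio differed between stages by 0.16, 0.13 and 0.30 on the log2 scale, with the libraries overlapping each time. The exact two-sided permutation p of these differences was 0.6286, 0.5714 and 0.3714. Apart from the pseudocount, a single scaling factor per library cannot move this ratio, but quantile normalization can. Under quantile normalization the rises of UBE2D1 and UBE2D3 from 0h to 46h lay further apart than in FPKM, with UBE2D1 the larger. The ratio was not tested under that normalization. UBE2D2 stayed near the filter, at 1.3 ± 0.846 FPKM at 0h, 1.35 ± 0.618 at 22h and 0.893 ± 0.320 at 46h, and UBE2D4 did not exceed 0.15 FPKM in any library. UBE2D2 and UBE2D4, which differ from UBE2D3 at 1 and 10 of the 42 bases around the active site, thus lay more than 3 orders of magnitude below it in mean level at each stage, within the uncertainty of shared reads.

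Among the UBE2E enzymes, which also act with many E3 ligases, UBE2E3 fell. Its libraries read 31.2, 29.5, 28.5 and 26.3 FPKM at 0h, at 25.1, 24.3, 28.0 and 23.6 at 22h, and at 15.7, 13.7, 18.6 and 16.4 at 46h. All 46h libraries lay below all earlier ones. From 0h to 46h its log2 fold change was -0.81 (SE 0.14, adjusted p = 0.0001756). This became -0.50 under median-of-ratios scaling and -0.27 under quantile normalization, and passed under neither.

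UBE2E1 and UBE2E2 passed in no comparison. UBE2E1 was measured at 3.69, 1.45, 4.90 and 16.9 FPKM at 0h, at 13.5, 9.97, 4.66 and 5.80 at 22h, and at 7.12, 4.60, 5.62 and 2.77 at 46h, so 0h replicate 4 was the highest of all. Without that library UBE2E1 passed as higher at 22h against 0h, by 1.12 on the log2 scale. UBE2E2 was measured at 0.66, 2.32, 1.51 and 1.41 FPKM at 0h, at 0.60, 0.94, 0.61 and 1.70 at 22h, and at 0.89, 0.95, 0.38 and 1.14 at 46h.

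UBE2H, the partner of the CTLH E3 complex, peaked at 22h. It was measured at 27.5, 17.5, 34.4 and 42.1 FPKM at 0h, at 62.9, 49.5, 45.0 and 43.9 at 22h, and at 38.1, 28.9, 34.3 and 24.3 at 46h. The 22h libraries lay above all others, the lowest of them by a small margin. The log2 fold change was 0.76 (SE 0.24, adjusted p = 0.02685) at 22h against 0h and -0.67 (SE 0.24, adjusted p = 0.03322) at 46h against 22h. Both calls are weak. The first was lost with no filter on low values, in a fit of only the groups compared, and without 0h replicate 1 (adjusted p = 0.05926), 0h replicate 2 (0.07416), 22h replicate 1 (0.0671) or 22h replicate 2 (0.05713), while the second was lost with no filter (0.08071), with both other scalings, and without 22h replicate 1 (0.0927), 22h replicate 2 (0.05801), 46h replicate 2 (0.07379) or 46h replicate 4 (0.1043). UBE2W, which attaches single ubiquitins to protein N-termini, went from 54.5 ± 16.0 FPKM at 0h to 40.1 ± 3.19 at 46h, which did not pass. Without 0h replicate 4 UBE2W passed as lower at 46h than at 0h, with a log2 fold change of -0.59.

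**Figure D3:**
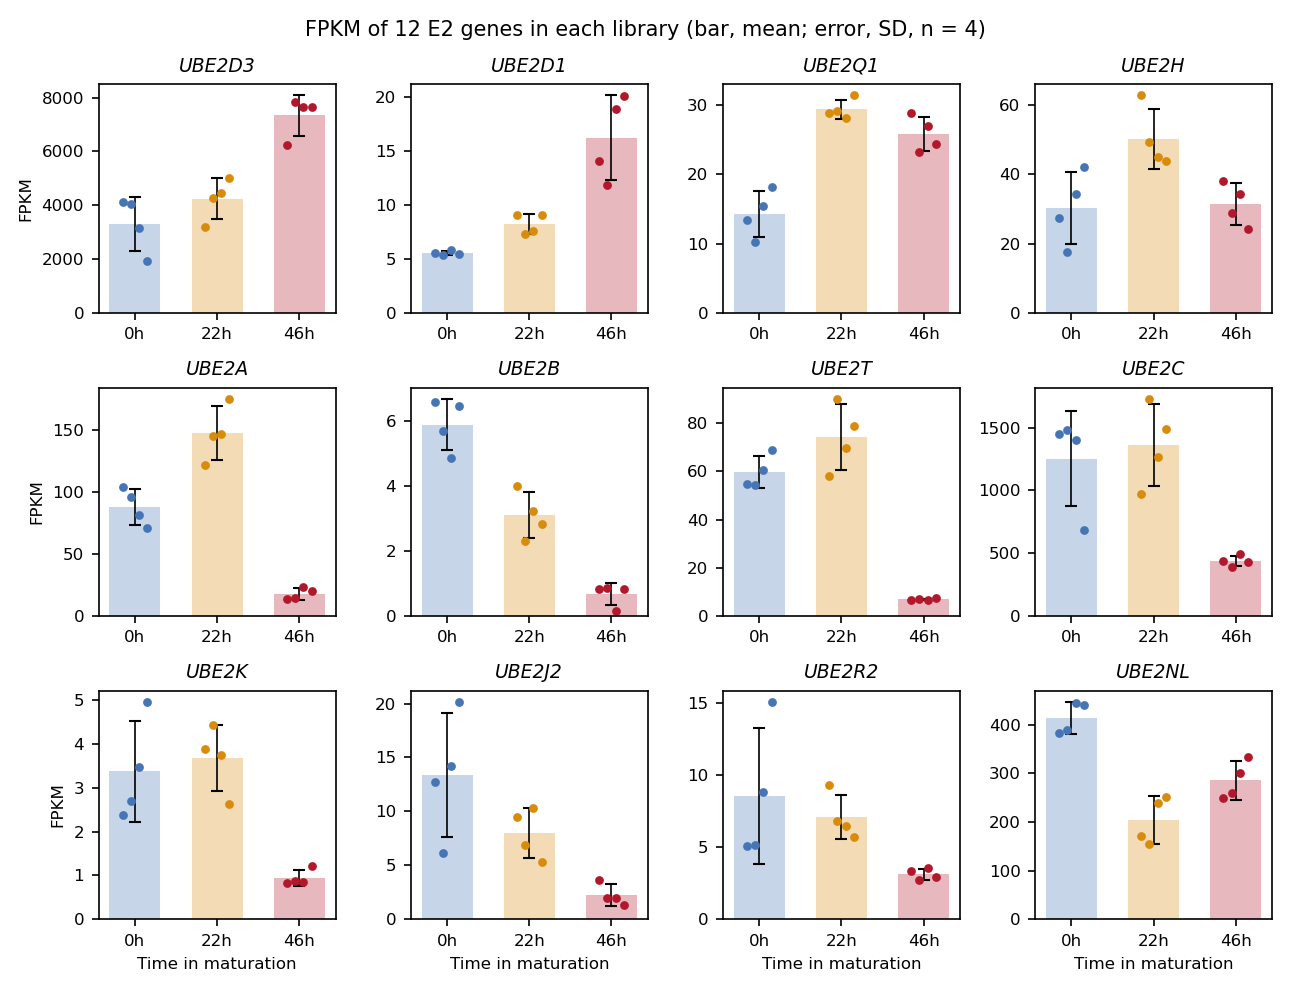
FPKM (y axis, from 0) of 12 E2 genes at each time in maturation (x axis), with bars for the mean, error bars for the SD and a point for each of the 4 libraries. UBE2D3 and UBE2D1 are highest at 46h, UBE2A and UBE2H at 22h, and UBE2T, UBE2A, UBE2B, UBE2C, UBE2K, UBE2J2 and UBE2R2 are lowest at 46h without overlap with either earlier stage.

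The E2 enzymes of chromatin and DNA repair include UBE2A, UBE2B and UBE2T. UBE2A and UBE2B are the mammalian counterparts of yeast Rad6, which ubiquitinate histone H2B and the replication clamp PCNA, and UBE2T serves the Fanconi anaemia pathway of crosslink repair. UBE2T, UBE2A and UBE2B were all lower at 46h than at 0h (beside 39.1% of all genes) and at 22h (beside 32.6%). Between 0h and 22h, by contrast, UBE2A rose and UBE2B fell.

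UBE2T lies on chromosome 10 from 24454492 to 24459085. Its libraries read 54.8, 54.5, 60.8 and 68.9 FPKM at 0h, at 58.1, 90.3, 69.8 and 78.8 at 22h, and at 6.63, 7.06, 6.73 and 7.23 at 46h. The first 2 stages overlapped, and the 46h libraries formed a narrow group well below both. The log2 fold change was -3.23 (SE 0.16, adjusted p = 1.172e-09) at 46h against 22h and -2.93 (SE 0.16, adjusted p = 1.446e-09) at 46h against 0h. The latter was -2.63 and -2.33 with the other scalings, and it kept its call in every alternative run.

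UBE2A lies on chromosome X from 97925136 to 98007551, where it overlaps a gene on the opposite strand. Levels were 104, 95.6, 81.0 and 71.2 FPKM at 0h, at 122, 145, 146 and 175 at 22h, and at 13.6, 14.1, 23.4 and 20.4 at 46h. The 3 stages did not overlap, with 22h highest and 46h lowest. In UBE2A the log2 fold change was 0.74 (SE 0.20, adjusted p = 0.01245) at 22h against 0h and -3.00 (SE 0.20, adjusted p = 2.57e-08) at 46h against 22h. Since the libraries were not stated to be stranded, reads of the opposite gene cannot be told apart in the overlap.

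UBE2B lies on chromosome 2 from 136652764 to 136667213. Levels were 6.57, 5.67, 4.85 and 6.45 FPKM at 0h, at 4, 2.31, 3.23 and 2.83 at 22h, and at 0.84, 0.86, 0.16 and 0.82 at 46h. Each stage lay below the one before without overlap. In UBE2B the log2 fold change was -0.76 (SE 0.19, adjusted p = 0.007759) at 22h against 0h and -2.06 (SE 0.19, adjusted p = 3.16e-07) at 46h against 0h. The first did not pass with a pseudocount of 0.1 FPKM (adjusted p = 0.07445) or with quantile normalization, where the log2 fold change was -0.57. At 46h, where UBE2B was under 1 FPKM, the pseudocount of 1 FPKM compresses the fall, which was -3.12 against 0h with a pseudocount of 0.1 FPKM.

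The balance of the Rad6 pair was compared as the ratio within each library. UBE2A exceeded UBE2B by 11-fold to 16.9-fold in the 0h libraries and by 30.5-fold to 62.7-fold in the 22h libraries, which did not overlap. The difference of 1.67 on the log2 scale had an exact two-sided permutation p of 0.0286, the smallest that 4 against 4 libraries can give. Over the 27 ratio tests made, on 9 pairs of paralogues in 3 comparisons, 5 had this p, with an adjusted p of 0.1543 for each, and with so few at that limit the design could not bring an adjusted p under 0.05. At 46h the ratio ranged from 16.2 to 146, where UBE2B was at 0.86 FPKM or less.

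**Figure D4:**
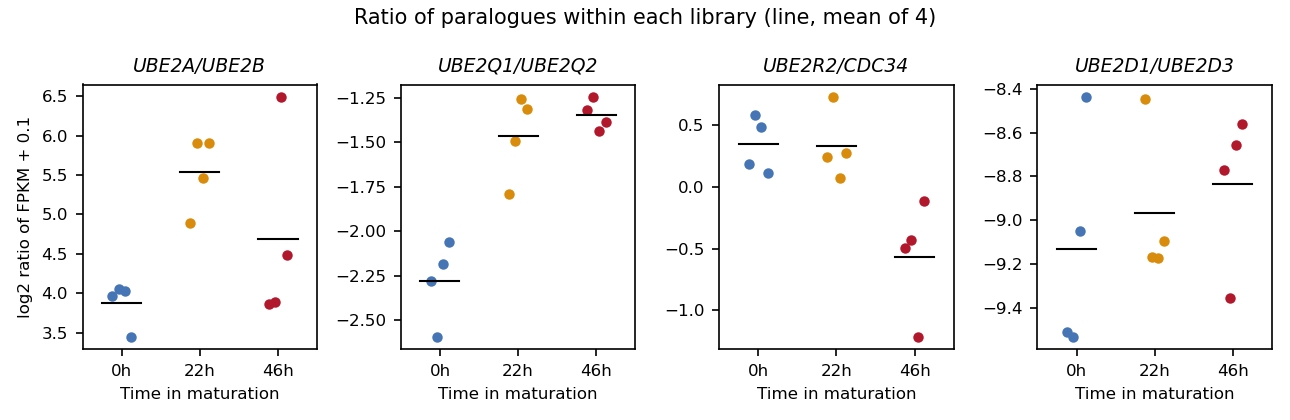
Log2 ratio of 4 pairs of paralogues within each library (y axis, FPKM + 0.1) at each time in maturation (x axis), with a point for each library and a line for the mean of 4. The UBE2A to UBE2B ratio is higher at 22h than at 0h, UBE2Q1 to UBE2Q2 is higher at both later stages, UBE2R2 to CDC34 is lower at 46h, and UBE2D1 to UBE2D3 overlaps between stages.

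Of the APC/C enzymes, UBE2C, on chromosome 17 from 48018403 to 48021542, was abundant before metaphase II and lower at it. It was measured at 1450, 1479, 1400 and 684 FPKM at 0h, at 969, 1732, 1264 and 1489 at 22h, and at 437, 391, 489 and 428 at 46h. The first 2 stages overlapped, and every 46h library lay below every earlier one. The log2 fold change was -1.61 (SE 0.25, adjusted p = 0.0001024) at 46h against 22h and -1.46 (SE 0.25, adjusted p = 0.0001382) at 46h against 0h, and the latter was -1.73 without 0h replicate 4. UBE2S, the E2 that extends lysine 11 chains on the same complex, was at most 0.81 FPKM in any library, and its stages overlapped.

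Of 4 E2 enzymes tied to lysine 48 chains and degradation that were tested, 3 were lower at 46h than at 0h and at 22h (beside 39.1% and 32.6% of all genes), and UBE2G2, which acts in degradation from the endoplasmic reticulum, passed in neither. UBE2J2 is anchored in the endoplasmic reticulum membrane. Levels were 12.7, 6.16, 14.3 and 20.2 FPKM at 0h, at 9.51, 6.86, 10.3 and 5.33 at 22h, and at 3.65, 2, 1.93 and 1.27 at 46h. The 46h libraries lay below all others, with a log2 fold change of -2.10 against 0h (SE 0.31, adjusted p = 3.773e-05) and -1.50 against 22h (SE 0.31, adjusted p = 0.001184).

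UBE2K, which builds lysine 48 chains, was measured at 2.38, 2.7, 3.49 and 4.97 FPKM at 0h, at 3.88, 4.45, 3.76 and 2.64 at 22h, and at 0.83, 0.88, 0.85 and 1.21 at 46h. All 46h libraries lay below all earlier ones. The log2 fold change was -1.26 against 22h (SE 0.19, adjusted p = 9.004e-05) and -1.14 against 0h (SE 0.19, adjusted p = 0.000117), and the latter became -0.45 under quantile normalization, under the fold threshold. UBE2G2 was measured at 1.46 ± 0.809 FPKM at 0h, 2.28 ± 0.604 at 22h and 1.37 ± 0.190 at 46h. Without 0h replicate 4 it passed as higher at 22h against 0h, by 0.65. Under quantile normalization UBE2G2 passed as higher at 22h against 0h, by 0.66, and at 46h against 0h, by 0.69.

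UBE2R2 is a partner of the SCF ligases and the close paralogue of CDC34, which carries no UBE2 symbol and is not a member. UBE2R2 was measured at 5.08, 5.13, 8.82 and 15.1 FPKM at 0h, at 9.28, 6.82, 6.49 and 5.70 at 22h, and at 3.34, 2.69, 3.54 and 2.92 at 46h. From 0h to 46h its log2 fold change was -1.09 (SE 0.27, adjusted p = 0.002577), and -0.43 under quantile normalization, which did not pass. CDC34 was measured at 4.45, 3.39, 6.26 and 14.0 FPKM at 0h, at 7.84, 4.07, 6.16 and 4.69 at 22h, and at 4.74, 3.67, 8.36 and 3.18 at 46h. UBE2R2 lay above CDC34 in every library of 0h and 22h and below it in every library of 46h. The log2 ratio differed by -0.90 at 46h against 22h and by -0.91 against 0h, each with an exact two-sided permutation p of 0.0286 (adjusted p = 0.1543). UBE2R2 also overlaps UBAP2 on the opposite strand.

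In the lysine 63 group 1 of 3 members tested passed, with a fall in the first interval (beside 26.7% of all genes called there, 18.9% as lower). The identifier that the name table calls UBE2NL is ENSSSCG00000000908. No identifier bore the name UBE2N, the E2 that builds lysine 63 chains, and whether this identifier is that gene was not tested. Levels were 383, 390, 445 and 440 FPKM at 0h, at 170, 155, 239 and 252 at 22h, and at 249, 259, 300 and 335 at 46h. All 0h libraries lay above all later ones, whereas 22h and 46h overlapped slightly. The fall from 0h to 22h, a log2 fold change of -1.05 (SE 0.18, adjusted p = 0.0007757), passed in all alternatives run. The log2 differences of 0.50 from 22h to 46h (adjusted p = 0.03406) and -0.54 from 0h to 46h (adjusted p = 0.0184) were under the fold threshold. UBE2NL passed as higher at 46h than at 22h with median-of-ratios scaling (0.83), with quantile normalization (0.60) and without 22h replicate 3 or 22h replicate 4. It passed as lower at 46h than at 0h in TPM and without 46h replicate 4.

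UBE2V1 is the cysteine-less partner of UBE2N in lysine 63 chains. It was measured at 270, 279, 285 and 242 FPKM at 0h, at 237, 228, 265 and 258 at 22h, and at 195, 272, 274 and 255 at 46h. The stages overlapped, and from 0h to 46h the 95% interval of its log2 fold change ran from -0.45 to 0.20. UBE2V2, its paralogue, was measured at 3.19, 3.51, 4.03 and 2.59 FPKM at 0h, at 1.78, 4.32, 3.25 and 3.51 at 22h, and at 3.26, 2.08, 1.11 and 2.85 at 46h. Neither passed in any comparison, and their ratio overlapped between all stages.

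Among the large and atypical members, UBE2Q1 rose early and its paralogue UBE2Q2 passed in no comparison. UBE2Q1, on chromosome 4 from 95221149 to 95229533, was measured at 13.4, 10.3, 15.5 and 18.1 FPKM at 0h, at 28.9, 29.2, 28.2 and 31.4 at 22h, and at 28.8, 23.3, 27.0 and 24.3 at 46h. All later libraries lay above all 0h libraries. The log2 fold change was 1.01 (SE 0.17, adjusted p = 0.0005386) at 22h against 0h and 0.83 (SE 0.17, adjusted p = 0.000601) at 46h against 0h, and both passed in every alternative run, apart from the second where a fold change over 2 was required.

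UBE2Q2 was measured at 65.6, 62.4, 70.6 and 75.8 FPKM at 0h, at 100.2, 82.2, 67.6 and 78.3 at 22h, and at 72.0, 55.3, 73.4 and 63.7 at 46h. Its stages overlapped. The difference between the paralogues was tested as their ratio, which differed by 0.81 on the log2 scale at 22h against 0h and by 0.93 at 46h against 0h, without overlap and with an exact two-sided permutation p of 0.0286 in both (adjusted p = 0.1543). UBE2Q2 remained the more abundant in every library.

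BIRC6, a giant protein that joins E2 and E3 activity and inhibits apoptosis, was measured at 2.03, 1.42, 1.90 and 1.60 FPKM at 0h, at 2.64, 2.62, 2.13 and 2.12 at 22h, and at 3.66, 2.8, 3.31 and 3.10 at 46h. The 3 stages did not overlap. From 0h to 46h the log2 fold change was 0.63 (SE 0.14, adjusted p = 0.001344), and it dropped under the fold threshold without 0h replicate 2 (0.57) or 46h replicate 1 (0.58).

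The 8 members with a mean under 1 FPKM were UBE2M, UBE2O, UBE2S, UBE2J1, UBE2Z, UBE2D4, UBE2L6 and UBE2QL1, the last listed at 0 in every library. UBE2M, the main E2 of NEDD8, was measured at 0.85, 0.69, 0.73 and 1.69 FPKM at 0h and at 0.16, 1.02, 0.86 and 0.65 at 22h, and was listed at 0 in all 4 libraries of 46h. UBE2O, another E2 and E3 hybrid, was at 0.23, 0.21, 0.55 and 1.64 FPKM at 0h, at 0.60, 0.28, 0.46 and 0.38 at 22h, and at 0.10, 0.04, 0.12 and 0.06 at 46h. UBE2J1, the second E2 anchored in the endoplasmic reticulum, was at 0.37, 0.32, 0.53 and 0.41 FPKM at 0h, at 0.22, 0.10, 0.21 and 0.28 at 22h, and at 0, 0.05, 0.04 and 0 at 46h.

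For these 3 genes the 46h libraries did not overlap those of 0h or 22h, with an exact two-sided permutation p of 0.0286 in each of these comparisons. After adjustment over the 20 tests made on the low members this p was 0.0816, and since no smaller p can arise from 4 against 4 libraries, a few such comparisons cannot pass the adjustment however large they are. With limma and no filter on low values, UBE2M passed as lower at 46h than at 22h and at 0h, beside 2175 and 3266 of 17633 genes called lower. Levels this low rest on few fragments. UBE2Z, the E2 charged by UBA6, UBE2L6, the E2 of ISG15, and UBE2D4 were at 0.24 FPKM or less in every library.

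The levels of UBE2L3 and UBE2U, named only through the list of changed genes, are given with no test. UBE2L3, which serves HECT and RING-between-RING ligases, was at 146, 161, 193 and 237 FPKM at 0h, at 114, 81.9, 85 and 76.1 at 22h, and at 64.5, 77.1, 65.5 and 68.4 at 46h. All 0h libraries of UBE2L3 lay above all later ones. UBE2U did not exceed 1.20 FPKM.

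The genes around the E2 enzymes were read from lists in the same fit, at 46h against 0h. Of 6 genes of ubiquitin and related modifiers tested, 2 were lower (NEDD8, log2 fold change -2.34, and RPS27A, a fusion of ubiquitin and a ribosomal protein, -3.00). UBB, a polyubiquitin gene, was at a mean of 25072 FPKM at 0h, 21254 at 22h and 23723 at 46h and passed in no comparison. Over all genes 16.8% were higher and 39.1% lower in this comparison, which is the background to these counts. Of 7 other E1 and E2 genes tested, 1 was higher (AKTIP, an E2 variant, 1.48) and 3 were lower (ATG3, -1.90, ATG7, -0.94, and MOCS3, -0.65). ATG3 and ATG7 conjugate the autophagy modifiers. MOCS3 did not pass under either other scaling, nor ATG7 under quantile normalization, where UBB passed as lower.

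Of 28 E3 ligases and their subunits tested, 9 were higher and 4 lower, beside 16.8% and 39.1% of all genes. They became 13 and 4 under median-of-ratios scaling (beside 26.9% and 34.1%) and 17 and 3 under quantile normalization (beside 41.0% and 25.5%). Of 8 subunits of the CTLH complex tested, the E3 that UBE2H serves, 4 were higher, namely ARMC8 (1.14), MKLN1 (1.08), YPEL5 (0.75) and RANBP9 (0.59), and RANBP10 fell by 1.74 on the log2 scale. These 5 passed under both other scalings too. RBX1 and RNF7, the paired RING subunits of the cullin ligases, went apart. RBX1 fell from a mean of 270.3 FPKM at 0h to 31.1 at 46h (-3.08), and RNF7 rose from 141 to 317 (1.16). Of 5 SUMO and NEDD8 proteases tested, SENP5 was higher (1.17), and COPS5 (-3.58), SENP2 (-1.35) and SENP8 (-1.18) were lower.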

How the data were processed

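Transcriptomes of denuded porcine oocytes were measured in 12 libraries, 4 each at 0h, 22h and 46h. The authors trimmed the reads, aligned them to the swine genome (Sscrofa11) with STAR and quantified genes with RSEM, and deposited FPKM values, which are scaled to transcript length and library size. No counts were at hand, so the depth and counting error are unknown. Members, gene lists and tests were chosen with earlier results of these data known. Values were taken as log2(FPKM + 1), and the 7013 genes averaging 1 FPKM or more were fitted with limma 3.58.1 in R 4.3.3 (eBayes with trend, stage as the only factor, two-sided, Benjamini-Hochberg adjustment over all 7013 genes). The thresholds of adjusted p under 0.05 and fold change over 1.5 follow the study, which tested counts, so limma on log2 values stands in. Paralogue ratios (log2, pseudocount 0.1 FPKM) and members under the filter were compared by exact two-sided permutation tests of 4 against 4 libraries (70 arrangements). Values in every library are given for members that passed with an absolute log2 fold change over 1, the 3 most abundant members and the tested pairs, and for UBE2H, UBE2M, UBE2O, UBE2J1, BIRC6 and the genes named only through the list of changed genes, which were added after their values were seen. Alternatives were another pseudocount, filter, fold threshold, scaling or unit (median-of-ratios, quantile, TPM), the limma trend, a fit of only the groups compared, a replicate block and each library left out. Coding sequences and positions came from RefSeq on Sscrofa11.1, copies were searched with BLAST 2.17.0, and tables were made with Python 3.11.15 and pandas 2.3.3. The limma step was tested on simulated data. Some genes are not reported here.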

Additional observations from a re-analysis of the deposited data

Results flagged for a closer look

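In 4 of 78 groups of 4 libraries (26 members in 3 stages), 1 library lay far from the other 3 by Dixon's criterion, where chance alone gives about 1 in 20 groups, or 3.9 groups. UBE2C was at 684 FPKM in 0h replicate 4, with the others at 1400 to 1479. UBE2D3 was at 6222 FPKM in 46h replicate 1, with the others at 7649 to 7833. UBE2B was at 0.16 FPKM in 46h replicate 3, with the others at 0.82 to 0.86, and this library gave the highest UBE2A to UBE2B ratio. UBE2K was at 1.21 FPKM in 46h replicate 4, with the others at 0.83 to 0.88.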

How the results depend on the processing

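No called change of a member reversed. Apart from the fold threshold, of 610 alternatives run on 28 called changes, 584 stayed past the thresholds and 26 did not, over 9 changes. With a fold change over 2 required, 2 members passed at 22h against 0h, 6 at 46h against 22h and 9 at 46h against 0h, beside 871, 1736 and 2687 of the 7013 genes. With 1 library left out, 4 to 7 members passed at 22h against 0h, 9 to 12 at 46h against 22h and 11 to 13 at 46h against 0h. Over the 7013 genes, 1546 to 2172, 2745 to 3113 and 3831 to 3961 passed in these runs. The highest count of members came without 0h replicate 4 at 22h against 0h, and without 0h replicate 4 or 46h replicate 4 at 46h against 0h. The replicate block gave 5, 11 and 12 members, beside 1801, 2933 and 3894 of the 7013 genes. Same-numbered libraries did not deviate together (correlations of their deviations -0.47 to 0.38, 3 of 12 pairs over 0.1, 2 of 12 libraries closest to their own number), so the numbers were not taken as pairing. Leaving out 1 library took the 5 ratio tests with a p of 0.0286 to 0.0571, the smallest that 3 against 4 can give, which says nothing about their stability. With a pseudocount of 1 FPKM, 3 further ratio differences reached 0.0286. Depth is unknown, so genes near 1 FPKM carry an unmeasured counting error, and the falls of UBE2E3 and the changes of UBE2H depended on the scaling or on single libraries. Quantile normalization also took away the falls of UBE2R2 at 46h, of UBE2K from 0h to 46h and of UBE2B from 0h to 22h. The UBE2B fall was lost with a pseudocount of 0.1 FPKM too, and the rise of BIRC6 without 0h replicate 2 or 46h replicate 1.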
